A study of Homo sapiens with 6 samples.

Results

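Heat shock protein genes and their transcription factor HSF1 were followed through 11 transcripts of 10 genes, chosen by their Ensembl transcript IDs out of 203028 transcripts in each deposited table. All 11 were found in every library and all 11 passed the filter on low counts. The RNA was polyadenylated RNA of HEK293, an established human embryonic kidney cell line. One group of 3 libraries came from cells given a lentivirus with a scrambled control shRNA, and the other 3 from cells given a lentivirus with shRNA against PRPF39, a protein that works with the U1 particle of the spliceosome, which marks where introns begin. Both groups carried an integrated construct and went through puromycin selection. The labels do not tell whether replicates are independent cultures, and p-values here reflect only how far the libraries of a group scatter, which may be technical. Library totals ran from 113747941 estimated counts (PRPF39 shRNA replicate 2) to 246491084 (PRPF39 shRNA replicate 3). PRPF39 itself, HEK293 markers and further chaperone genes were not analysed here, because only the 11 IDs were paired with gene names. Each value below therefore belongs to 1 transcript and not to the whole gene.

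Heat shock proteins are chaperones that help other proteins fold and keep damaged ones from clumping. In resting cells HSF1 is held inactive by chaperones; when unfolded protein draws the chaperones away, HSF1 forms trimers and binds heat shock elements, arrays of inverted GAA units, upstream of chaperone genes. HSPA1A and HSPA1B, the classic stress-induced HSP70 genes, have no introns, so their mRNAs are made without splicing. HSF1 is controlled mostly as a protein, so the amount of its mRNA does not report its activity.

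Sequences upstream of listed start sites of the genes are shown because heat shock elements are the feature that this family is known to share. HSF1 was left out of this part. RefSeq start-site windows (GRCh38.p14, 250 bases before to 50 after each start) were taken for 9 of the 10 genes, 13 windows in all. They were searched on both strands for GAANNTTC and TTCNNGAA, each of 2 inverted units with any 2 bases between them, and for the same pattern extended to 3 alternating units (GAA, TTC, GAA or TTC, GAA, TTC, with any 2 bases between neighbours). Each 3-unit match contains both 2-unit forms. In the lines below, the capitals mark these matches, and every sequence reads 5′ to 3′ towards the start site of its window.
HSPA1A, chr6:31815413-31815542, plus strand, up to the last base before the start: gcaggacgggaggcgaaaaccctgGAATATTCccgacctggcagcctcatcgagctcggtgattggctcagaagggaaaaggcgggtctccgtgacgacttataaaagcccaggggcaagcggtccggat
HSPA1B, chr6:31827608-31827737, plus strand, up to the last base before the start: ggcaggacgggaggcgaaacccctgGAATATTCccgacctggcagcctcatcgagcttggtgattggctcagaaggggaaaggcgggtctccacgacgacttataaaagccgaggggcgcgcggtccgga
HSPA8, chr11:123062345-123062374, minus strand: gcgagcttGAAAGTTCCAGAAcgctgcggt
HSPA8, chr11:123062170-123062199, minus strand: cgggccccTTCTGGAAGGTTCtaagatagg
HSP90AA1, chr14:102087104-102087133, minus strand: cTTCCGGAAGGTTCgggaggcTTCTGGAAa
HSPD1, chr2:197500061-197500090, minus strand: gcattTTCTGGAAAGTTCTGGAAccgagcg
HSPB1, chr7:76302480-76302509, plus strand: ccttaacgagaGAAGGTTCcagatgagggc
DNAJB1, chr19:14518456-14518485, minus strand: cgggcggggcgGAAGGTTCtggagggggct
DNAJB1, chr19:14518426-14518455, minus strand: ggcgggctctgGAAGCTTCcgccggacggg

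A 3-unit match was found in 3 of the 13 windows, 1 each for HSPA8, HSP90AA1 and HSPD1, against 0.49% of all 35116 windows in the RefSeq table. A 2-unit match was found in 9 of the 13, against 13.5% of all windows. These 9 include the DNAJB1 window with the start site at 14517937, whose only match begins 1 base after that start and is not printed. HSPA1A and HSPA1B hold the same 8 letters, which begin 106 and 105 bases before their start sites, and their 250 upstream bases are 93.6% identical over 251 aligned columns. The single window of HSPE1 held no match, and HSPA9 held 1 that begins 4 bases before its start and runs across it. The HSPE1 window begins at 197500129 on chromosome 2, and the HSPD1 match printed above, within 197500061-197500090, lies outside it on its upstream side. HSP90AA1 has 2 windows, and the match lies in the one whose start site is at 102087044 on chromosome 14. The tables do not say which of its 2 transcripts begins there. HSPD1 also has 2 windows, and its match lies only in the one whose start site is at 197499840. The HSPD1 window with the start site at 197500274 held none, and neither did the DNAJB1 window with the start site at 14529271. The printed bases of HSPA8, HSP90AA1, HSPD1 and DNAJB1 lie inside the listed span of each gene, before an internal start site. Only exact GAA and TTC units were searched for, so units with a mismatch were not counted for any gene. A match to these letters is a description.

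In TPM, which scales reads by length and depth, these mRNAs ranged from among the most abundant transcripts to moderate levels (rank 84 to 131 over the 6 libraries for the major HSP90AA1 transcript and 3831 to 6245 for the minor one, out of 203028). HSP90AA1 transcript ENST00000216281 stood highest in control libraries at 1094 ± 74.1 TPM (SD, n = 3), followed by HSPA1A at 897 ± 35.4 and HSPA1B at 706 ± 18.5 (SD, n = 3 each). HSPD1 at 381 ± 4.67, HSPA9 at 231 ± 26.8 and HSPE1 at 161 ± 11.5 TPM (SD, n = 3 each), all mitochondrial chaperones, came next. HSPB1 (70.4 ± 9.50), DNAJB1 (48.3 ± 1.10), HSPA8 (45.2 ± 10.7), HSF1 (38.5 ± 4.15) and HSP90AA1 transcript ENST00000334701 (20.1 ± 2.24 TPM, SD, n = 3 each) closed the order. The libraries of HSPA8 overlapped those of DNAJB1 and HSF1, so these neighbours were not separated beyond their spread. In PRPF39 shRNA libraries the order of the means was the same, but HSP90AA1 at 1359 ± 53.5 and HSPA1A at 1305 ± 178 TPM (SD, n = 3 each) overlapped. TPM rests on the quantifier's effective length, which was 1.53 to 1.54 times the annotated length for HSPA1A and 0.680 to 0.715 times for HSPE1. Levels of different genes therefore depend on that model, whereas it differed little between libraries for 1 gene.

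**Figure D1:**
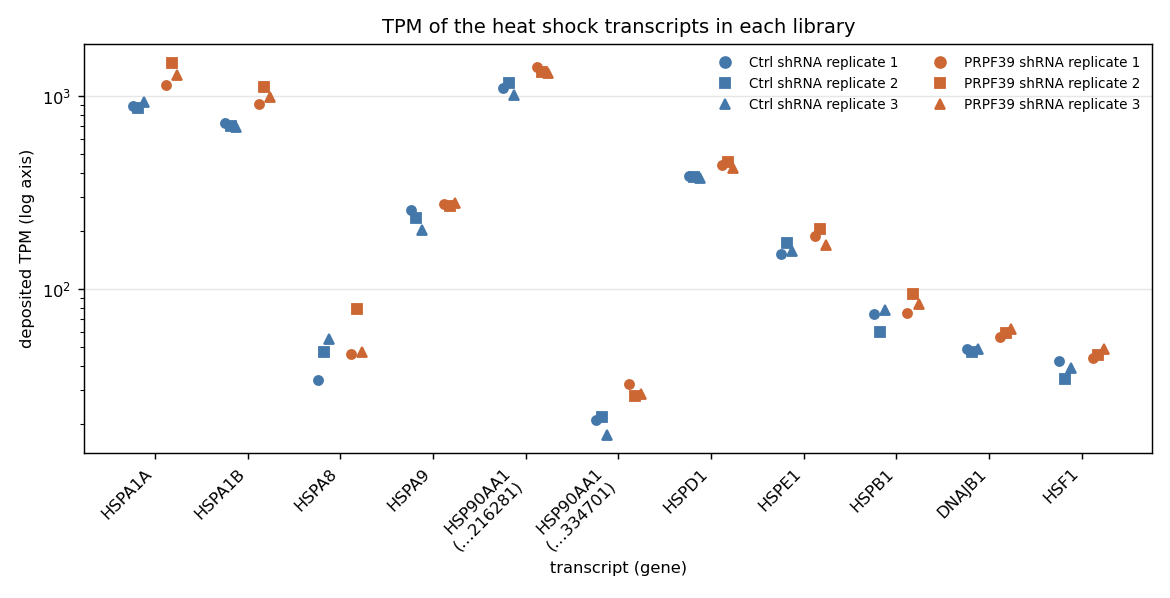
Deposited TPM (log axis) of the 11 heat shock transcripts, 1 point per library, blue for control and orange for PRPF39 shRNA, with marker shape for the replicate number. HSPA1A and HSPA1B stand apart between groups, while the points of HSPA8 interleave.

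The stress-induced HSP70 genes showed some of the largest differences. HSPA1A (ENST00000375651, 2483 bases) stood at 893, 864 and 934 TPM in control replicates 1, 2 and 3 and at 1138, 1493 and 1285 TPM in PRPF39 shRNA replicates 1, 2 and 3. All PRPF39 shRNA libraries lay above all controls, with replicate 2 highest. HSPA1B (ENST00000375650, 2521 bases) stood at 728, 698 and 694 TPM in control and at 912, 1120 and 987 TPM in PRPF39 shRNA libraries, again with no overlap and replicate 2 highest. The fitted log2 fold change was 0.51 ± 0.14 (SE) for HSPA1A and 0.48 ± 0.12 for HSPA1B, that is 1.42-fold and 1.39-fold. Neither passed the threshold of 0.05 in the quasi-likelihood test of edgeR across the 97571 transcripts tested, with Benjamini-Hochberg adjusted p = 0.146 and 0.126.

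Because the 2 genes are nearly identical, the quantifier can divide their reads in different ways, and the single values are uncertain for that reason. The sum of their reads does not depend on the division. The sum of their TPM does so only as far as their effective lengths differ, 3794 for HSPA1A and 3675 for HSPA1B in control replicate 1. The summed TPM was 1621, 1562 and 1628 in control and 2050, 2613 and 2272 in PRPF39 shRNA libraries, with means of 1604 ± 36.2 and 2312 ± 283 TPM (SD, n = 3 each). On the log2 CPM scale (CPM is the count scaled to library size with TMM factors) the sum differed by 0.49, with an exact two-sided permutation p = 0.1, the smallest that 3 libraries against 3 can give. Over the 4 such comparisons made here the Benjamini-Hochberg adjusted value of this exact permutation test was 0.2. HSPA1A took 55.9%, 56.0% and 58.2% of the pair's reads in control and 56.2%, 57.9% and 57.3% in PRPF39 shRNA libraries (exact permutation p = 0.7), so the division overlapped between groups. Together the pair held 0.478% to 0.524% of all estimated counts in control and 0.633% to 0.834% in PRPF39 shRNA libraries.

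**Figure D2:**
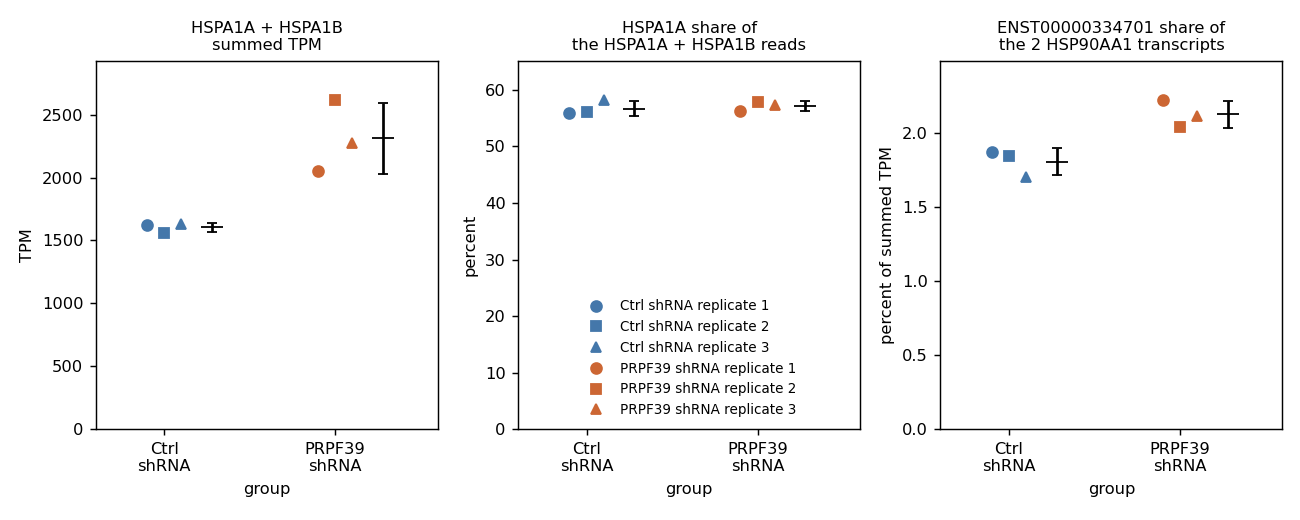
Left to right, summed TPM of HSPA1A and HSPA1B, the percent of the pair's reads given to HSPA1A, and the percent of the summed TPM of the 2 HSP90AA1 transcripts held by ENST00000334701, for each library; bars are mean ± SD of 3 libraries. The groups are apart in the left and right panels and overlap in the middle one.

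The fitted differences of the other HSP70 members were smaller, although that of HSPA8 was imprecise. HSPA8 encodes the constitutive cytosolic HSP70, and its transcript ENST00000534624 (2463 bases) stood at 33.8, 47.0 and 54.9 TPM in control and at 46.2, 79.2 and 47.4 TPM in PRPF39 shRNA libraries. Only PRPF39 shRNA replicate 2 lay above the highest control, and control replicate 1 was lowest. Its log2 fold change of 0.30 ± 0.31 (SE; edgeR adjusted p = 0.703) was -0.036 without PRPF39 shRNA replicate 2, 0.08 without control replicate 1 and 0.46 without control replicate 3. HSPA9, the mitochondrial HSP70, stood at 257, 233 and 203 TPM in control and at 277, 271 and 280 TPM in PRPF39 shRNA libraries. These groups did not overlap, and the PRPF39 shRNA libraries were close together. The log2 fold change was 0.22 ± 0.10 (SE; edgeR adjusted p = 0.322), and 0.14 without control replicate 3.

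HSP90AA1 encodes the stress-inducible cytosolic HSP90, which completes the folding of kinases and hormone receptors. Its major transcript ENST00000216281 (3379 bases) stood at 1101, 1164 and 1016 TPM in control and at 1420, 1340 and 1318 TPM in PRPF39 shRNA libraries. The groups were apart in TPM, whereas in CPM PRPF39 shRNA replicate 3 (3113) lay below control replicate 2 (3223). Its log2 fold change was 0.28 ± 0.12 (SE; edgeR adjusted p = 0.312). The minor transcript ENST00000334701 (3510 bases) stood at 21.0, 21.9 and 17.6 TPM in control and at 32.2, 27.9 and 28.5 TPM in PRPF39 shRNA libraries. All 3 PRPF39 shRNA libraries were above all controls on both scales. Its log2 fold change of 0.52 ± 0.14 (SE), or 1.43-fold, was the highest of the 11, with edgeR adjusted p = 0.146. The minor transcript had 8163 to 18817 estimated counts per library, beside 380493 to 784458 for the major one. Reads that fit both transcripts are divided between them by the quantifier. The effect of that division on the values and the share of the minor transcript was not tested.

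The minor transcript held 1.87%, 1.84% and 1.70% of the summed TPM of the 2 HSP90AA1 transcripts in control replicates and 2.22%, 2.04% and 2.12% in PRPF39 shRNA replicates. Their mean was 1.80% ± 0.089 with the scrambled shRNA and 2.12% ± 0.091 with PRPF39 shRNA (SD, n = 3 each), with no overlap. The difference of 0.318 percentage points had an exact two-sided permutation p = 0.1, the smallest possible, and 0.2 after adjustment over the 4 comparisons. It lay between 0.267 and 0.361 percentage points when any 1 library was left out.

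The mitochondrial chaperonin genes HSPD1 and HSPE1 encode HSP60 and HSP10, which form the folding chamber and its lid, and they are transcribed in opposite directions on chromosome 2. HSPD1 (ENST00000388968) stood at 386, 379 and 377 TPM in control and at 439, 455 and 426 TPM in PRPF39 shRNA libraries. The groups were apart in TPM, although in CPM PRPF39 shRNA replicate 3 (627) fell under control replicate 2 (651). HSPE1 (ENST00000233893) stood at 151, 174 and 158 TPM in control and at 188, 206 and 170 TPM in PRPF39 shRNA libraries, where replicate 3 lay within the control range. Log2 fold changes were 0.17 ± 0.09 and 0.20 ± 0.15 (SE; edgeR adjusted p = 0.429 and 0.581). That of HSPE1 was 0.09 without control replicate 1, 0.11 without PRPF39 shRNA replicate 2 and 0.34 without control replicate 2, and that of HSPD1 was 0.11 without control replicate 1. The ratio of HSPD1 to HSPE1 CPM, examined after the values were seen, was 6.10 to 7.10 in control and 6.17 to 6.86 in PRPF39 shRNA libraries, so the PRPF39 shRNA values lay inside the control range (log2 difference -0.03, exact permutation p = 0.8).

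HSPB1, a small heat shock protein that binds unfolding proteins without using ATP, stood at 74.0, 59.7 and 77.7 TPM in control and at 75.6, 94.4 and 83.8 TPM in PRPF39 shRNA libraries. Its groups overlapped, since PRPF39 shRNA replicate 1 lay under control replicate 3. DNAJB1, the HSP40 partner that loads substrates onto HSP70, stood at 48.9, 47.0 and 49.0 TPM in control and at 56.5, 59.1 and 61.8 TPM in PRPF39 shRNA libraries, without overlap. Log2 fold changes were 0.24 ± 0.12 for HSPB1 and 0.26 ± 0.09 for DNAJB1 (SE; edgeR adjusted p = 0.398 and 0.224). Without PRPF39 shRNA replicate 2 that of HSPB1 was 0.13.

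HSF1 (ENST00000528838, 2142 bases) stood at 42.5, 34.2 and 39.0 TPM in control and at 44.0, 45.8 and 49.2 TPM in PRPF39 shRNA libraries. The groups did not overlap, but the lowest PRPF39 shRNA library was close to the highest control. In CPM the control values were closer together, at 88.3, 88.4 and 91.0, and the PRPF39 shRNA values were 100.3, 107.7 and 106.3. The log2 fold change was 0.23 ± 0.07 (SE), which is 1.17-fold, with edgeR adjusted p = 0.175.

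Across the family, then, every fitted difference was positive and none passed the test over all transcripts. Of the 11 transcripts, 0 were called by edgeR's quasi-likelihood test at adjusted p under 0.05, where 0.904% of all 97571 tested transcripts were called in either direction and 0.443% as higher. The lowest adjusted p was that of HSPA1B, 0.126. At an unadjusted p under 0.05 (edgeR) there were 5, namely HSPA1A, HSPA1B, the minor HSP90AA1 transcript, DNAJB1 and HSF1, where 7.88% of all tested transcripts were higher at that level and 25.1% of the 3894 averaging 50 CPM or more, the abundance at which all 11 lie. Limma-voom called 0 of the 11, beside 0.444% of all tested transcripts called higher, and DESeq2 called the same 5 higher, where it called 5% of all tested transcripts higher. That share covers transcripts of every abundance. Among those of at least 5 CPM, fitted separately, DESeq2 called 13.3% higher and 3 of the 11.

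**Figure D3:**
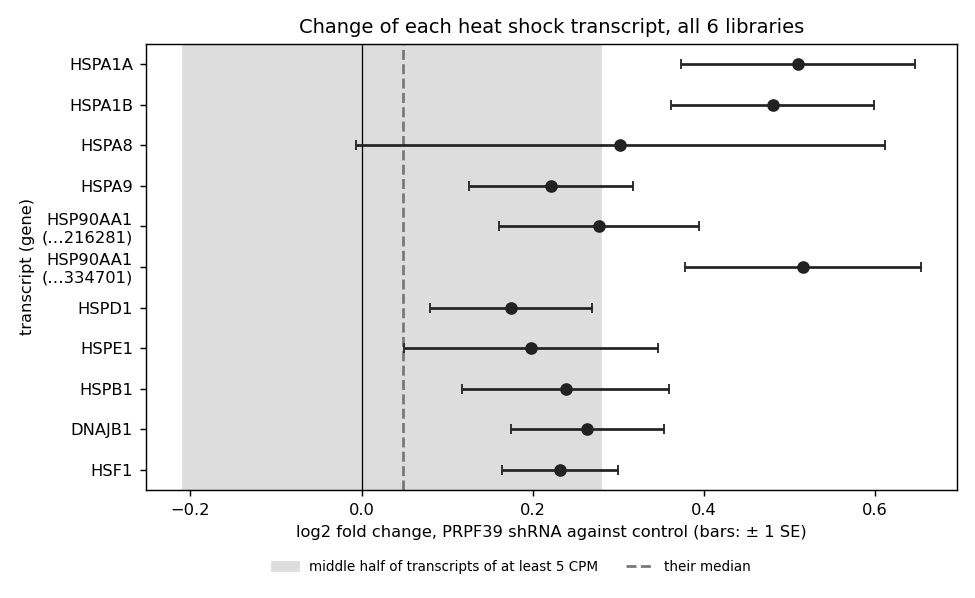
Log2 fold change of each transcript, PRPF39 shRNA against control, with ± 1 SE from edgeR over 6 libraries; the grey band runs between the quartiles, and the dashed line marks the median, of all transcripts averaging 5 CPM or more. HSPA1A, HSPA1B and HSP90AA1 ENST00000334701 lie to the right of the band, near 0.5, and HSPA8, at 0.30 with the widest SE, lies just past its edge at 0.28.

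The median log2 fold change of the 11 was 0.26, with a range from 0.17 for HSPD1 to 0.52 for the minor HSP90AA1 transcript. Over all tested transcripts the median was -0.02, and 48.3% were above 0. Over those of at least 50 CPM it was 0.04, with quartiles of -0.16 and 0.25, and 56.7% were above 0. In CPM, 6 of the 11 had all PRPF39 shRNA libraries above all controls, where 12.6% of all tested transcripts and 29.4% of those of at least 50 CPM did so. In TPM the number was 8 of 11, beside 26.6% at that abundance. The 11 share libraries and depth, and they were chosen as a family, so these counts are a description without a test.

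The 20216 transcripts that averaged 5 CPM or more were also fitted separately, where 8.55% were called higher and 9.13% lower. There 2 of the 11 were called higher and 0 lower (edgeR adjusted p under 0.05). HSP90AA1 ENST00000334701 rose by a log2 of 0.47 ± 0.11 (SE; edgeR adjusted p = 0.027), and HSPA1B by 0.43 ± 0.12 (SE; edgeR adjusted p = 0.047). HSPA1A, with 0.46 ± 0.14 (SE), missed the threshold at adjusted p = 0.061 (edgeR). DNAJB1 and HSF1, which had low unadjusted p in the wider fit, stood at adjusted p = 0.119 and 0.145 (edgeR). DESeq2 on the same transcripts called 3 of the 11 higher, HSPA1A, HSPA1B and the minor HSP90AA1 transcript, beside 13.3% of all; DNAJB1 and HSF1 lost the call they had with DESeq2 over all transcripts, with adjusted p going from 0.0399 to 0.0911 and from 0.00242 to 0.127. HSPA1B lost its call whichever library was left out, with adjusted p from 0.059 to 0.142 (edgeR), and the minor HSP90AA1 transcript kept it only without control replicate 2, reaching 0.0784 otherwise. The share of all transcripts called higher in these refits was 10.2% without control replicate 1. It fell to between 1.96% and 4.52% without any other library.

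**Figure D4:**
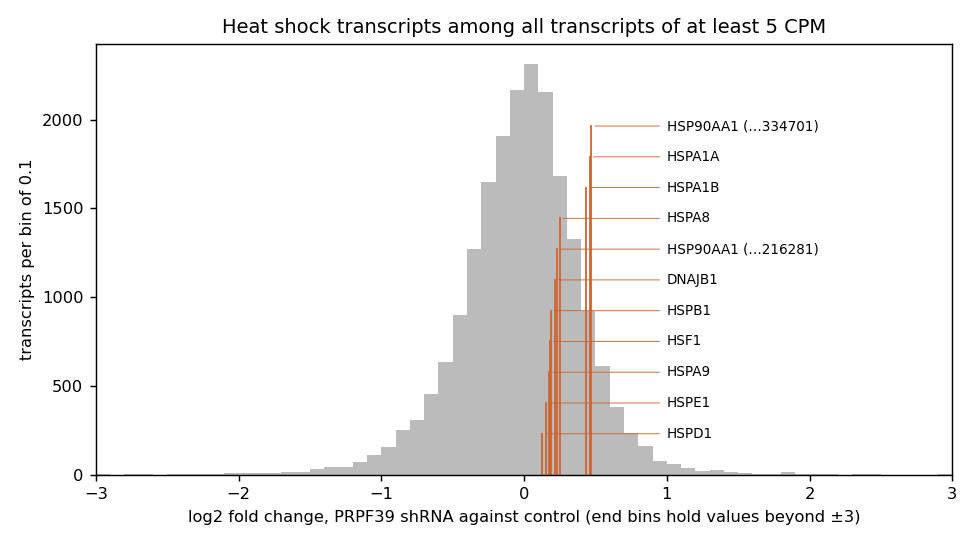
Number of transcripts per 0.1 of log2 fold change among the 20216 that averaged 5 CPM or more, with vertical lines at the 11 heat shock transcripts. The lines run from 0.13 for HSPD1 to 0.47 for HSP90AA1 ENST00000334701, all right of 0 and inside the bulk of the distribution.

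In that distribution HSP90AA1 ENST00000334701 lay at the 90.5th percentile of log2 fold changes, HSPA1A at the 90.1st and HSPA1B at the 88.7th. The other 8 lay between the 64.5th (HSPD1) and the 76.6th (HSPA8). Together the 11 transcripts held 0.369% ± 0.0063 of all TPM with the scrambled shRNA and 0.485% ± 0.030 with PRPF39 shRNA (SD, n = 3 each). This sum follows mainly the most abundant of them, HSP90AA1 ENST00000216281, HSPA1A and HSPA1B. Their mean TPM was 1094, 897 and 706 with the scrambled shRNA and 1359, 1305 and 1007 with PRPF39 shRNA.

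The libraries did not contribute evenly. In CPM, PRPF39 shRNA replicate 2, which had the fewest counts, held the highest value for 9 of the 11 transcripts, and control replicate 1 held the lowest for 8. Centred on each transcript's own mean, the median of the 11 was -0.29, 0.01 and -0.13 in control replicates 1, 2 and 3 and 0.08, 0.23 and 0.09 in PRPF39 shRNA replicates 1, 2 and 3. In TPM the lows were spread over the controls, with 2, 4 and 5 in replicates 1, 2 and 3, while PRPF39 shRNA replicate 2 kept 6 of the highs. Without PRPF39 shRNA replicate 2 the fitted log2 fold change stayed above 0 for 10 of the 11, the exception being HSPA8, and the median of the 11 was 0.21. HSPA1A then stood at a log2 fold change of 0.37 and HSPA1B at 0.36. The part of library depth in these differences was not tested.

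**Figure D5:**
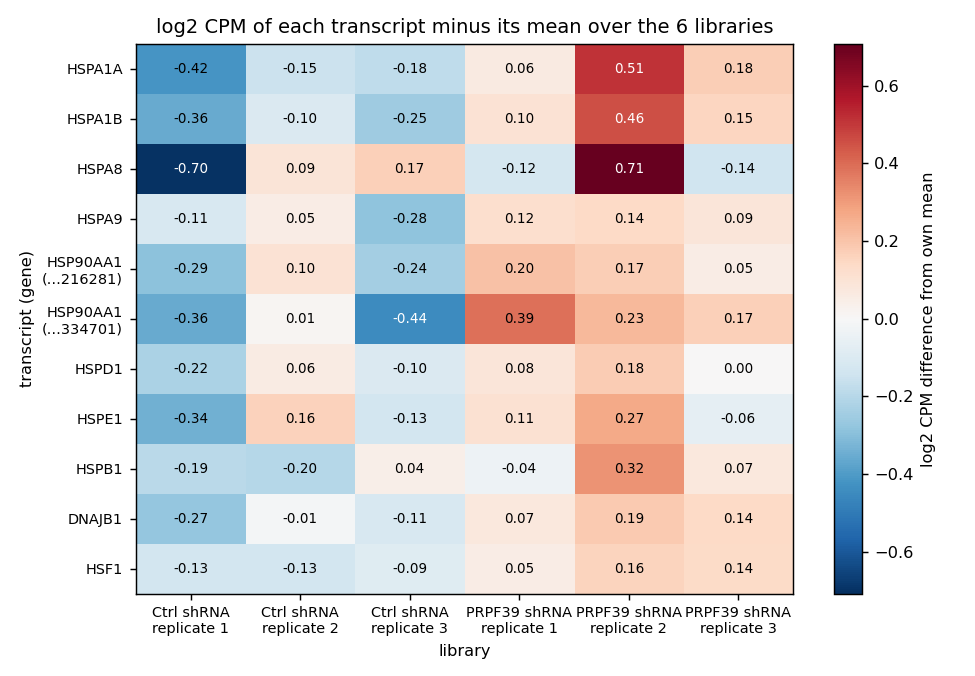
Log2 CPM of each transcript minus its mean over the 6 libraries, transcripts in rows and libraries in columns, red above and blue below the mean. PRPF39 shRNA replicate 2 is red in every row, and HSPA8 has the widest swing, from -0.70 to 0.71.

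Profiles over the 6 libraries were compared by the mean absolute difference of these centred values. HSPD1 and DNAJB1 were each other's nearest (0.05 on the log2 scale), as were HSPA1A and HSPA1B (0.05), whose reads are shared. The minor HSP90AA1 transcript was nearest to the major one (0.12), HSPE1 to HSPD1 (0.07), and HSF1 to DNAJB1 (0.06). HSPA8 was the farthest from each of the other 10, and its own nearest was HSPE1 at 0.25.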

How the data were processed

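The members and lists were chosen with earlier results of these data known. The authors deposited 1 table per library with estimated counts (the quantifier's read numbers, mostly not whole and not scaled) and TPM from each library's effective lengths, per the file headers. Build hg38, Salmon 0.11.1, STAR 2.7.9a, DESeq2 1.32.0 and cutadapt 2.1 are named in the submitters' processing notes. Options and annotation release are not given in the sources used here.

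Under R 4.3.3, estimated counts were rounded and fitted with edgeR 4.0.16, using filterByExpr on the groups (minimum count 10), TMM scaling and a quasi-likelihood test between the groups from all 6 libraries without covariates, with Benjamini-Hochberg adjustment over all transcripts tested. The SE is the ratio of the log2 fold change to the square root of F. Sums and ratios of transcripts were compared by exact permutation tests. All 11 IDs were named by rule, and profiles were compared within the 11. The planned list of other chaperone genes and the cell line markers were not analysed here. Deviations of same-numbered libraries from their group means correlated at 0.289, 0.0493 and -0.0197 (numbers 1, 2 and 3), so the numbers were not taken as pairs. Alternatives used DESeq2 1.42.0, limma 3.58.1, other normalizations and filters, TPM, effective-length offsets, a replicate block and leaving out each library. Alternatives within the set of at least 5 CPM and the HSPD1 to HSPE1 ratio were chosen after seeing the data.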

Additional observations from a re-analysis of the deposited data

How the results depend on the processing

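Of 308 refits of the 11 log2 fold changes, 285 kept their direction and their side of the threshold, 21 kept the direction and passed the threshold, and 2 reversed, both for HSPA8 without PRPF39 shRNA replicate 2 (-0.036 over all transcripts and -0.083 at 5 CPM or more); without control replicate 1 HSPA8 was at 0.078 and 0.023, and without control replicate 3 it was 0.46 and 0.44. The number of the 11 called higher was 0 in the test over all transcripts and became 2 at a mean of at least 5 CPM and 5 with DESeq2. At 5 CPM or more it was 1 with upper-quartile normalization, where HSPA1B had adjusted p = 0.0523 (edgeR), and 0 to 1 when each library was left out. The share of all those transcripts called higher was 7.87% with that normalization and 1.96% to 10.2% when each library was left out. None of the 11 was called lower in any refit. Over all transcripts, 432 were called higher and 450 lower, 1729 and 1845 at 5 CPM or more, 4877 and 4124 with DESeq2, 0 and 0 with the replicate block (14264 at an unadjusted p under 0.05, edgeR), and 0 to 14 and 0 to 12 when each library was left out. At 5 CPM or more the DESeq2 counts were 2693 higher and 2892 lower. There the edgeR counts ranged from 396 to 2049 higher and from 492 to 2221 lower as single libraries were dropped. With the replicate block at 5 CPM or more 3 of the 11 were called higher, beside 7.73% of those transcripts: HSPA1A (adjusted p = 0.0497, edgeR) with HSPA1B and the minor HSP90AA1 transcript. Its pairing changed no other call among the 11. The log2 ratio of HSPD1 to HSPE1 ran from -0.088 to 0.022 when each library was left out, reversing without control replicate 1 (0.022) and without PRPF39 shRNA replicate 2 (0.0080). The cause of these differences was not tested. Each member had at least 8163 estimated counts in every library.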
